A study of Mus musculus with 4 samples.

Results

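Short distal 3'UTRs (d3'UTRs) of 100 to 300 bp were examined in mTEChi of the mouse, a mature MHC class II-high stage of medullary thymic epithelium in which Aire is expressed. A d3'UTR is the stretch of the last exon between the most proximal annotated polyadenylation site (pA) and the annotated end of the transcript, so only transcripts that pass the proximal pA contain it. All features with a d3'UTR length of 100 to 300 bp in the feature counts were taken, together with the upstream part of the same last exon (coding bases included), and RefSeq IDs with the same lengths and counts were joined into 1 feature. This gave 1037 d3'UTRs (from 1280 RefSeq IDs and 993 genes) of 6821 d3'UTRs in all, or 15.2%. Their median length was 193 bp, and the upstream part had a median of 666 bp. Another 734 d3'UTRs were shorter than 100 bp and 5050 were longer than 300 bp.

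The study compared mTEChi of WT and Aire-KO (Aire-/-) B6 mice of 4 weeks, with 1 WT and 1 Aire-KO library in a first experiment and 1 of each in a replicate experiment. Each library came from sorted CD45-, Ly51-, I-A/E-high cells of 4 pooled mice, so variation between single mice was not measured. RNA was polyA-selected and sequenced without strand information. Counts summed over all RefSeq IDs were 191404483 in WT and 168899954 in Aire-KO of the first experiment, and 111077552 and 242862323 for the replicate experiment. Aire itself had a level of 398 CPM (reads scaled to a common library size) in WT and 1381 in Aire-KO of the first experiment, and 307 and 765 for the replicate experiment, so its level cannot serve to check the labels and the libraries are named here as labelled. The summed level of 12 mTEC markers was 12770 and 20170 CPM in the WT libraries and 21580 and 26490 CPM in the Aire-KO libraries. That of 11 thymocyte markers was 42.4 and 64.3 CPM in WT and 33.7 and 40.4 CPM in Aire-KO, and that of 8 fibroblast markers 135 and 110 CPM in WT and 316 and 277 CPM in Aire-KO. These 3 sums did not overlap between the genotypes, and their part in the results was not tested. Single genes did not all follow the mTEC sum. Epcam had 433.2 and 353.7 CPM in WT and 330.1 and 323.8 CPM in Aire-KO. Fezf2, like Aire and Cd80, was higher in Aire-KO, with 325.3 and 309.7 CPM in WT and 470.8 and 498.1 CPM there. The MHC class II gene H2-Aa had 3130 and 6365 CPM in WT and 5932 and 6633 CPM in Aire-KO, which overlapped. The sums of 8 dendritic cell and macrophage markers (313 to 559 CPM) and of 5 endothelial markers (20.5 to 61.7 CPM) overlapped. In such bulk samples, fewer cells of a type and less RNA per cell cannot be told apart.

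An mRNA ends where the cleavage and polyadenylation machinery cuts the nascent RNA and adds the poly(A) tail. The cut usually follows a hexamer, AAUAAA or a close variant of it, that the CPSF complex recognises, while CstF binds a U- or GU-rich element after the cut. When a gene has several pAs in its last exon, use of the proximal one gives a shorter 3'UTR, which can lack binding sites of microRNAs and RNA-binding proteins. Aire is the transcriptional regulator that lets mTEChi express a wide range of genes otherwise restricted to peripheral tissues.

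The places of 396 of the 1037 short d3'UTRs were found on mm9 (NCBIM37), and the DNA on the sense strand before both ends was read. The windows below show the 30 bases that end at the proximal pA and at the distal end of 13 of them, with the hexamer by which a site was classed in capitals. They were chosen after their values were seen, as examples of low and of higher ratios of distal to upstream reads and of exceptions.

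Cox7a2 proximal pA, chr9:79603214-79603243, minus strand: aactgctgccAATAAAgcaatccttaacca
Cox7a2 distal end, chr9:79603048-79603077, minus strand: atgtgtattcacttttagcagctagggata
Psmb6 proximal pA, chr11:70341124-70341153, plus strand: cgcagaagctAATAAAcagtttgttaaaga
Psmb6 distal end, chr11:70341331-70341360, plus strand: gtttttaAATAAAatggtttgttttatgtg
Arpc5l proximal pA, chr2:38871080-38871109, plus strand: gcatcAATAAAgctcttggcttattagtct
Arpc5l distal end, chr2:38871363-38871392, plus strand: ggagcttatttAATAAAgtgccaaaccttt
Klk6 proximal pA, chr7:51087128-51087157, plus strand: cctggtacttAATAAAtgtagtgacacaga
Klk6 distal end, chr7:51087368-51087397, plus strand: ctcagtggctaacagcacttatagcaagaa
Gkn2 proximal pA, chr6:87329354-87329383, plus strand: agaagccaaAATAAAttcttcccaacattc
Gkn2 distal end, chr6:87329459-87329488, plus strand: tcaaaAATATAtctgtaatgatatatttac
Pcca proximal pA, chr14:123289021-123289050, plus strand: taaatcAATAAAaccaagcatttgtctaaa
Pcca distal end, chr14:123289137-123289166, plus strand: tgtgattctttaaaaatttaTATAAAttcc
Arid1a proximal pA, chr4:133235144-133235173, minus strand: gttttgtttcatttctaatcgaggtgtgaa
Arid1a distal end, chr4:133234923-133234952, minus strand: taagAATAAAtgtacattaaatcttggtaa
Sgpl1 proximal pA, chr10:60561510-60561539, minus strand: ttttaatattaccagttttatacttggaaa
Sgpl1 distal end, chr10:60561390-60561419, minus strand: caattgaatAATAAAtgtcccaaactgtaa
Cilp proximal pA, chr9:65128158-65128187, plus strand: atgacaaaacaaagattctcctcttaaaaa
Cilp distal end, chr9:65128383-65128412, plus strand: tgaataaggaAATAAAcaatgtttttatgt
Umod proximal pA, chr7:126606488-126606517, minus strand: gaatgtggcaaaataataagtttaaagtat
Umod distal end, chr7:126606380-126606409, minus strand: atggtgggAATAAAacagatcctttctcta
Wdfy2 proximal pA, chr14:63575423-63575452, plus strand: ctgtgtggatgtttacgcttctatatttca
Wdfy2 distal end, chr14:63575694-63575723, plus strand: agctggcctcttgagtcacctggagggagc
Mreg proximal pA, chr1:72206020-72206049, minus strand: ataaagaataaAATAAAcaaaagacatcct
Mreg distal end, chr1:72205807-72205836, minus strand: gaATTAAAagactttgctgtgtgcctttaa
Rnf19b proximal pA, chr4:128761637-128761666, plus strand: ttttaatttattggctaaactgatgttggc
Rnf19b distal end, chr4:128761741-128761770, plus strand: cattttAATAAAgaattctgtcataactga

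The d3'UTR ratio divides the read density of the d3'UTR (reads per bp) by that of the upstream part in the same library. Its median over the short d3'UTRs was 0.217 in WT and 0.192 in Aire-KO of the first experiment, and 0.178 in WT and 0.121 in Aire-KO of the replicate experiment. Most short d3'UTRs were thus covered at well under the level of their upstream part in every library. A ratio under 0.25 was found in 54.1% and 57.6% of them in the first experiment (WT and Aire-KO) and in 59.9% and 65.1% in the replicate experiment, and a ratio over 0.75 in 6.38% to 8.11%. No read at all lay in 4.93% and 9.04% of the short d3'UTRs in the first experiment and in 16.8% and 17.1% in the replicate experiment. In d3'UTRs longer than 300 bp the median ratio was 0.601 and 0.553 for the first experiment and 0.501 and 0.472 for the replicate experiment.

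Only reads that lie wholly inside a feature were counted, so a 50 bp read has 49 fewer start positions than the feature has bases. Taking 49 bp off both lengths raised the median of the short d3'UTRs to 0.281 and 0.248 for the first experiment and to 0.226 and 0.154 for the replicate experiment. The gap to the longer d3'UTRs remained, with medians of 0.562, 0.516, 0.471 and 0.440 there in the same order. This correction allows only for lost start positions. Whether the rest of the gap reflects use of the pAs was not tested. Within the short d3'UTRs the medians of the bins under 200 bp were below those of the bins from 200 bp up. This held in each library and on both scales. In WT the medians did not rise further between the bins of 200 to 249 bp and of 250 to 300 bp. With 49 bp off, WT of the first experiment had medians of 0.233 at 100 to 149 bp (308 d3'UTRs), 0.262 at 150 to 199 bp (247), 0.370 at 200 to 249 bp (260) and 0.355 at 250 to 300 bp (222). Aire-KO of the replicate experiment had 0.0947, 0.165, 0.190 and 0.201 in the same bins. At 301 to 999 bp the corrected medians of the 4 libraries were 0.418 to 0.525. These medians are described without a test, since d3'UTRs of 1 library are not replicates.

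**Figure D1:**
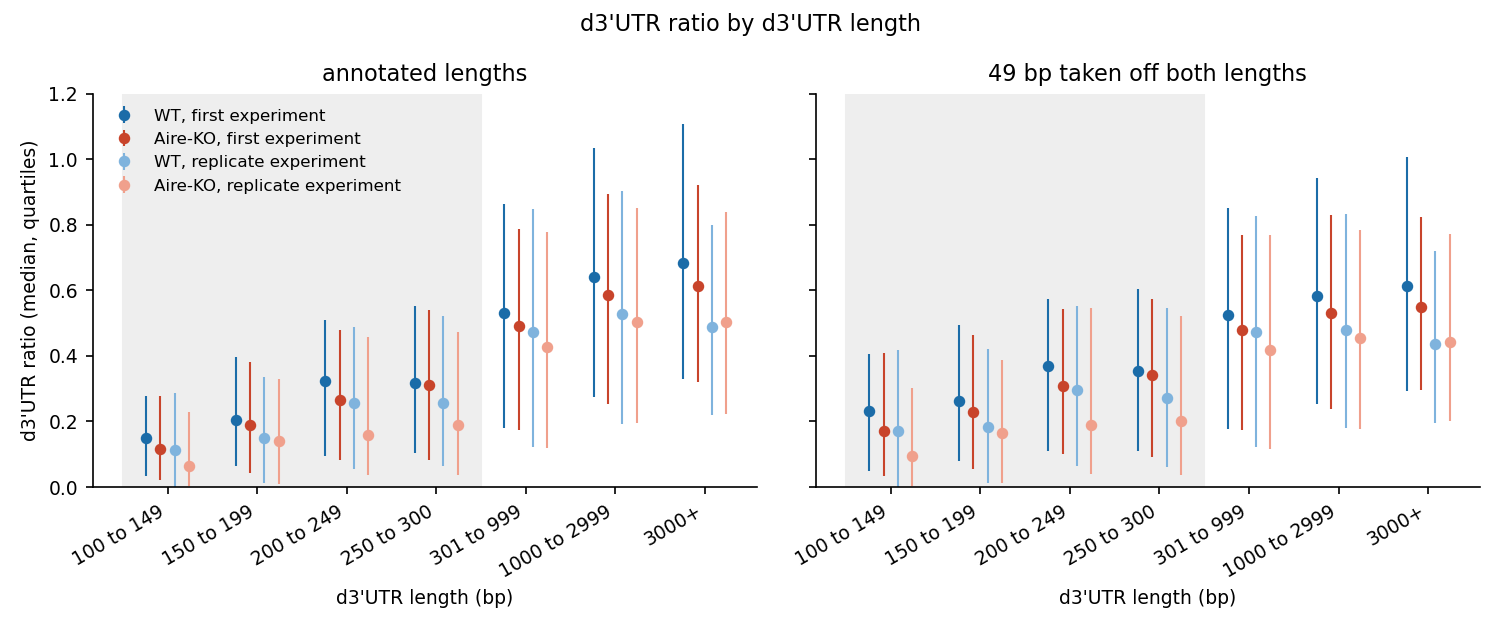
d3'UTR ratio (no unit) by d3'UTR length in bp for each library, as medians (points) with quartiles (bars), with annotated lengths on the left and with 49 bp taken off both lengths on the right. The shaded bins are the d3'UTRs of 100 to 300 bp, whose medians lie below those of every longer bin in each library on both scales.

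The limits of the length range did not mark a step in these values that could be told from the spread of few d3'UTRs. The 27 d3'UTRs of 100 to 104 bp had median ratios of 0.0622 to 0.126 over the 4 libraries, and the 35 of 95 to 99 bp had 0.0523 to 0.0993. At the other end the 19 d3'UTRs of 296 to 300 bp had 0.147 to 0.233, and the 14 of 301 to 305 bp had 0.129 to 0.454. Among genes at the limits, H2az1, which encodes the histone variant H2A.Z, had a d3'UTR of 100 bp and ratios of 0.152, 0.179, 0.162 and 0.327 (WT and Aire-KO of the first experiment, then of the replicate experiment). Aldh3a2, a fatty aldehyde dehydrogenase gene, had 99 bp and was left out, with ratios of at most 0.00882. Hcfc1r1 had 300 bp and ratios of 0.0767, 0.0433, 0.0381 and 0.0300. Ckap2, a gene for a spindle protein, had 301 bp and ratios of 0.0697 or less.

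The order of the short d3'UTRs was much the same in every library. Of the 841 with at least 100 upstream reads in every library, 417 (49.6%) had a ratio under 0.25 in all 4 libraries and 23 (2.73%) a ratio over 0.75 in all 4. Over the 695 that also had a d3'UTR read in every library, log2 ratios with 49 bp off correlated at 0.845 (WT and Aire-KO of the replicate experiment) to 0.945 (WT and Aire-KO of the first experiment). These are correlations across d3'UTRs, which share libraries and annotation and are not independent replicates. The median ratio of the 841 did not follow the depth of the upstream part. In WT of the first experiment it was 0.193 in the quartile with the fewest upstream reads per bp and 0.198 in the quartile with the most. In Aire-KO of the replicate experiment the same quartiles had 0.121 and 0.131.

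Ratios were lower where AATAAA stood before the proximal pA. In the last 40 bases before the proximal pA, on the sense strand, AATAAA (the DNA form of AAUAAA) was present in 198 of the 396 located short d3'UTRs (50%), ATTAAA without AATAAA in 52 (13.1%), and 1 of 10 rarer variants (AGTAAA or TATAAA or CATAAA or GATAAA or AATATA or AATACA or AATAGA or ACTAAA or AATGAA or AAGAAA) without either in 78 (19.7%). The other 68 (17.2%) held none of these. The 396 may not stand for all short d3'UTRs. Their median ratios were 0.195, 0.163, 0.140 and 0.1025 (WT and Aire-KO of the first experiment, then of the replicate experiment). The 641 that were not located had higher ones, 0.233, 0.198, 0.189 and 0.136. The AATAAA began at a median of 21 bases before the pA. In a window of the same size placed 200 bases upstream of the pA, AATAAA was present in 3 of 396 (0.758%). Of 2073 located d3'UTRs longer than 300 bp, 773 (37.3%) had AATAAA before the proximal pA.

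In WT of the first experiment, the median ratio was 0.0848 with AATAAA before the proximal pA, 0.182 with ATTAAA, 0.304 with a rarer variant and 0.375 with none. In Aire-KO of the first experiment these medians were 0.0755, 0.163, 0.301 and 0.371. WT of the replicate experiment gave 0.0621, 0.125, 0.319 and 0.335, and Aire-KO gave 0.0473, 0.101, 0.256 and 0.336. The order of the 4 classes was the same in each of the 4 libraries. The median with AATAAA was lower than the median with none by 0.281 ± 0.0121 (SD, n = 2) in WT and by 0.292 ± 0.00459 (SD, n = 2) in Aire-KO, as differences of ratios. A ratio under 0.25 was found in 75.1% to 79.7% of the short d3'UTRs with AATAAA and in 25% to 35.9% of those with none, depending on the library. The longer d3'UTRs had the same order, from medians of 0.335, 0.318, 0.258 and 0.236 with AATAAA to 0.888, 0.770, 0.765 and 0.769 with none in the 4 libraries.

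At the distal end, ratios were higher with AATAAA than with no listed hexamer. AATAAA stood in the last 40 bases of 180 of the 396 short d3'UTRs (45.5%), against 1241 of the 2073 longer ones (59.9%), and none of the 12 hexamers in 85 (21.5%) and 253 (12.2%). Short d3'UTRs with AATAAA at the distal end had median ratios of 0.249, 0.229, 0.173 and 0.110 (WT and Aire-KO of the first experiment, then of the replicate experiment). Those with none had 0.0935, 0.0892, 0.0663 and 0.0428. With ATTAAA the medians were 0.213, 0.186, 0.2335 and 0.158, below AATAAA in the first experiment and above it in the replicate experiment. With a rarer variant they were 0.148, 0.158, 0.110 and 0.101. The order of the classes was thus not the same in every library. With the 2 commonest hexamers (AATAAA and ATTAAA) pooled, the 93 short d3'UTRs that had one at the distal end and none at the proximal pA had the highest medians, 0.370, 0.356, 0.390 and 0.332. The 99 with the reverse arrangement had the lowest, 0.0758, 0.0711, 0.0621 and 0.0382. The 151 with one at both places had 0.130, 0.114, 0.0998 and 0.0706, and the 53 with neither had 0.256, 0.261, 0.209 and 0.170.

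The split was seen in both length ranges. At 100 to 199 bp the median in WT of the first experiment was 0.0658 with AATAAA before the proximal pA (105 d3'UTRs) and 0.285 with none (37). At 200 to 300 bp it was 0.127 (93) and 0.499 (31). Aire-KO of the replicate experiment had 0.0328 and 0.271 at 100 to 199 bp and 0.0687 and 0.470 at 200 to 300 bp. The ratio also rose with length where AATAAA or ATTAAA stood at the distal end and neither at the proximal pA. With 49 bp off, WT of the first experiment had medians of 0.406 at 100 to 199 bp, 0.561 at 200 to 300 bp and 0.787 over 300 bp there. Aire-KO of the replicate experiment had 0.317, 0.549 and 0.645. A match to a hexamer describes the DNA of the reference and does not show that the site is used. A run of at least 7 A in the 10 bases after the proximal pA, where oligo(dT) can anneal, was present in 6 of the 396.

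**Figure D2:**
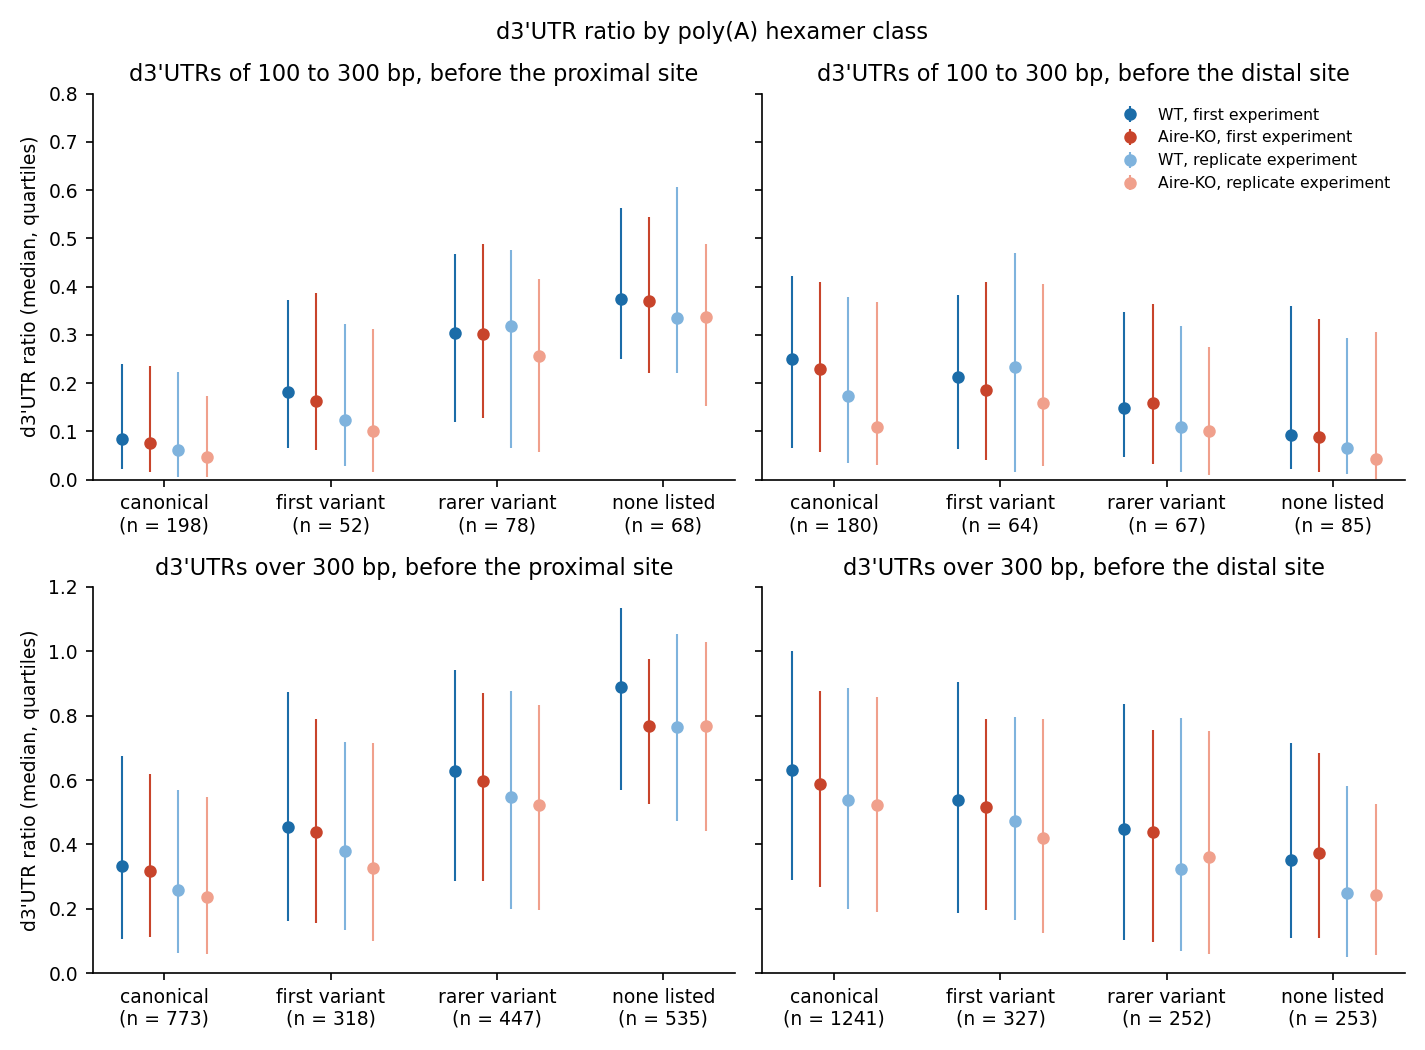
d3'UTR ratio (no unit, medians as points and quartiles as bars, 1 colour per library) by the class of the poly(A) hexamer before the proximal pA and before the distal end, for d3'UTRs of 100 to 300 bp in the upper panels and longer ones in the lower panels. Canonical stands for AATAAA and first variant for ATTAAA. In the upper left panel the medians rise from 0.0473 to 0.0848 with the canonical hexamer to 0.335 to 0.375 with none in the 4 libraries.

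The genes shown above were chosen after their values were seen, so they illustrate this split and its exceptions and are no further evidence. Cox7a2, a subunit gene of cytochrome c oxidase, had AATAAA before the proximal pA and no listed hexamer at the distal end of its d3'UTR of 166 bp. Its d3'UTR held 3 reads in each library of the first experiment, beside 3820 upstream reads in WT and 2371 in Aire-KO, and 0 reads in the replicate experiment beside 6532 and 8249. Counts of 0 there allow ratios of up to 0.000551 in WT and 0.000436 in Aire-KO (3 reads). Psmb6, which encodes a catalytic subunit of the proteasome, had ratios of 0.0486 and 0.0328 in the libraries of the first experiment and of at most 0.0211 in the others, with AATAAA at both places. Arpc5l, a gene for a subunit of the actin-nucleating Arp2/3 complex, also had AATAAA at both and ratios of 0.0629, 0.0750, 0.0645 and 0.0838.

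Arid1a, a subunit gene of the BAF chromatin remodelling complex, had no listed hexamer before the proximal pA and AATAAA at the distal end. Its ratios were 0.432, 0.359, 0.228 and 0.0773, so that Aire-KO of the replicate experiment lay apart from the other libraries. Sgpl1, which encodes sphingosine-1-phosphate lyase, had the same arrangement and ratios of 0.466, 0.354, 0.437 and 0.255 on 72025 to 176315 upstream reads. Wdfy2, a gene for an endosomal protein, had no listed hexamer at either place and ratios of 1.01, 0.906, 0.629 and 1.06. Rnf19b, a ubiquitin ligase gene, went against the split with ratios of 0.0567, 0.0516, 0.0648 and 0.0481 although its proximal window held no listed hexamer. Mreg, the melanoregulin gene, did so in the other direction, with AATAAA before the proximal pA and ratios of 0.565, 0.407, 0.418 and 0.111.

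The lowest ratios among the 841 well covered short d3'UTRs belonged to features without a single read. Bbc3, which encodes the pro-apoptotic protein Puma, had 0 reads in its d3'UTR of 129 bp in all 4 libraries beside 5855, 3664, 2359 and 5578 upstream reads (WT and Aire-KO of the first experiment, then of the replicate experiment). A count of 0 there allows ratios of up to 0.00432, 0.00691, 0.0107 and 0.00454. Zfp707 (a zinc finger gene), Gcsh (the H protein of the glycine cleavage system), Pcca (a subunit of propionyl-CoA carboxylase) and Ddx59 (an RNA helicase gene) also had 0 reads in every library. Their upstream counts ran from 122 in Ddx59 to 2464 in Zfp707. These intervals and limits cover counting error only.

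At the other end, 13 well covered short d3'UTRs had a ratio over 1 in all 4 libraries with 49 bp off. Agbl5, a gene for a cytosolic carboxypeptidase, had the highest ratios in 3 of the 4 libraries, with 13.3 (95% exact binomial interval 11.9 to 14.8) and 15.9 (14.0 to 18.1) in the first experiment and 32.4 (28.2 to 37.5) and 15.6 (14.4 to 17.1) in the replicate experiment. Its d3'UTR of 148 bp held 1625, 1288, 1968 and 2826 reads, more than its upstream part of 534 bp with 442, 292, 219 and 652. Frmd7, a FERM domain gene, had ratios of 13.4 (the highest in that library), 5.69, 10.6 and 4.49, higher in both WT libraries than in both Aire-KO libraries. Kansl1l had 2.26, 3.18, 5.71 and 2.59. Tesk2, a protein kinase gene, had 2.54, 2.71, 1.93 and 2.71.

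Reads of a gene on the other strand can lie in a d3'UTR, since the libraries hold no strand information. An exon of an opposite-strand gene overlapped 28 of the 396 located short d3'UTRs (7.07%), against 190 of 2073 longer ones (9.17%). Their median ratios were 0.240, 0.233, 0.205 and 0.199, against 0.190, 0.157, 0.139 and 0.101 in the other 368. Pmel, the melanosome matrix gene, overlapped Dgka and had ratios of 8.55, 14.0, 3.83 and 6.17 on 19 to 88 upstream reads. 1700088E04Rik overlapped Micall1 and had 1.53, 1.63, 1.46 and 1.36. Vti1b, a SNARE gene, overlapped Arg2 and had 1.32, 1.74, 0.876 and 1.46. Values of these d3'UTRs are uncertain for that reason. Ppt1, a lysosomal thioesterase gene, overlapped Cap1 and had 1.31 and 1.43 in the first experiment but 0.0815 and 0.140 in the replicate experiment.

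The 6 short d3'UTRs with the most upstream reads were those of B2m, H2-D1, Hspa5, Ubd, Sgpl1 and Mreg, and the ratios of the last 2 are given above. Ubd, which encodes the ubiquitin-like protein FAT10, had 252334 to 402015 upstream reads and ratios of 0.229, 0.187, 0.211 and 0.166. H2-D1, a classical MHC class I gene, had 0.0905, 0.0836, 0.0744 and 0.0569, and its reads can be shared with other class I genes. B2m, the gene of the MHC class I light chain, had 0.569, 0.585, 0.894 and 1.51. Its libraries differed by experiment more than by genotype. Hspa5, the endoplasmic reticulum chaperone BiP, had 0.0917, 0.0925, 0.130 and 0.115. Epcam and Fezf2, both expressed by mTECs, had ratios of 0.0638 to 0.0876 and of 0.0129 to 0.0214.

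Gene families were compared by the median ratio of their short d3'UTRs, with no test. Among lists of at least 5 d3'UTRs, respiratory chain genes were lowest in each library with medians of 0.0227, 0.0195, 0.0192 and 0.0118 over 7 d3'UTRs. Atp5b, the ATP synthase beta subunit gene, had 0.00674, 0.00720, 0.00901 and 0.00725, and Uqcrfs1, the Rieske protein gene of complex III, had 0.0227, 0.0195, 0.0192 and 0.0118. Ribosomal protein genes had medians of 0.0551 to 0.0809 over 10 d3'UTRs but were not uniform. Rpl14 had 0.00434 to 0.00510 and Rpl13a 0.306 to 0.371. Ubiquitin enzymes were highest among lists of at least 10, with medians of 0.444, 0.424, 0.454 and 0.391 over 19 d3'UTRs. Rnf11, a ubiquitin ligase gene of this list, had 0.452, 0.424, 0.321 and 0.331. The 14 splicing factors and RNA helicases had medians of 0.0910 to 0.170, the 25 zinc finger factors of 0.0308 to 0.139, the 20 vesicle traffic genes of 0.116 to 0.208, the 19 solute carriers of 0.0887 to 0.180, the 13 cell cycle genes of 0.116 to 0.202 and the 11 chromatin genes of 0.101 to 0.228. The other lists held 1 to 16 short d3'UTRs, and the lists of dendritic cell and endothelial markers held none.

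The comparison of WT and Aire-KO addressed whether the use of the short d3'UTRs depends on Aire. The mean of the library medians was 0.197 ± 0.0279 (SD, n = 2) in WT and 0.157 ± 0.0503 (SD, n = 2) in Aire-KO. The median was higher in WT by 0.0250 in the first experiment and by 0.0567 in the replicate experiment. The difference of the means, 0.0408, was larger than the SD of the WT libraries and smaller than that of the Aire-KO libraries, and did not pass the test (exact two-sided permutation test, p = 0.667, smallest p possible 0.333). With 49 bp off it was 0.0525 (exact two-sided permutation test, p = 0.667). Single libraries decided its size. It was 0.00526 without Aire-KO and 0.0605 without WT of the replicate experiment, and 0.0764 without Aire-KO and 0.0211 without WT of the first experiment.

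**Figure D3:**
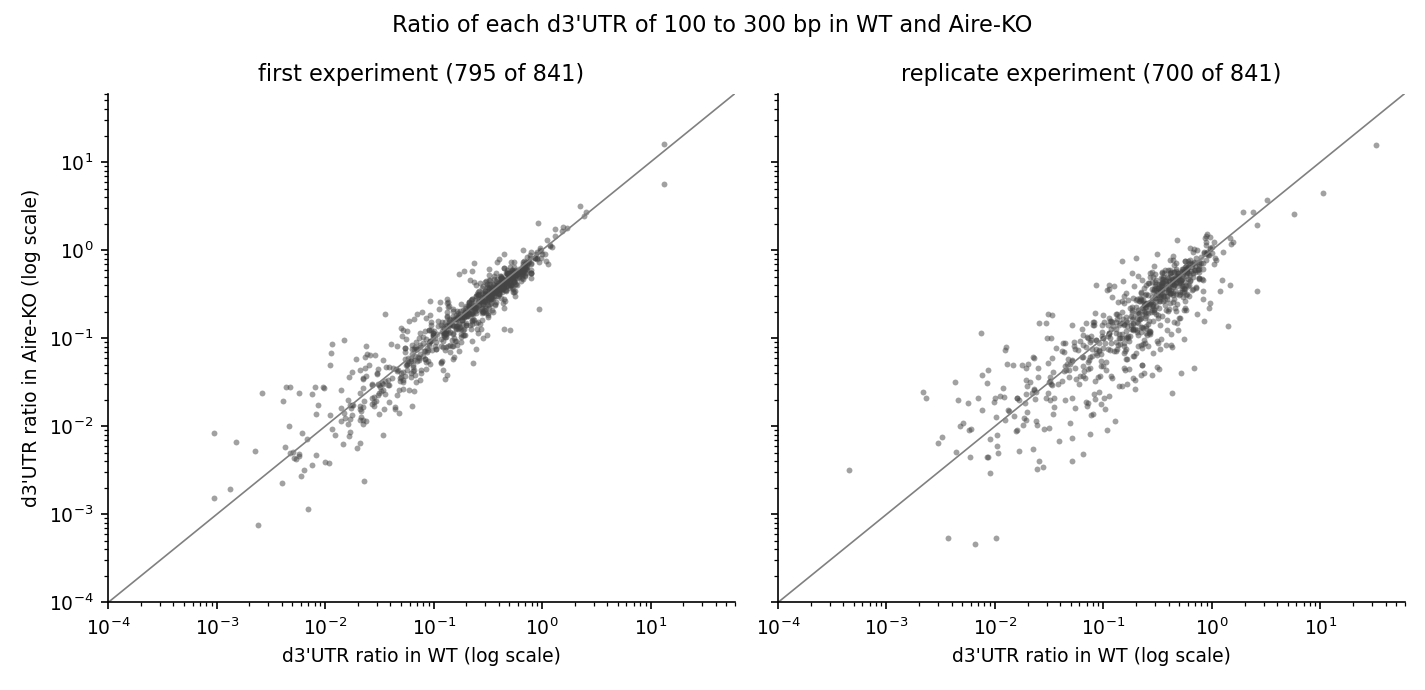
Ratio of each short d3'UTR in Aire-KO (vertical) against WT (horizontal), both without unit on log axes, for the first and the replicate experiment. Each point is 1 d3'UTR with at least 100 upstream reads in every library and a d3'UTR read in both libraries of the experiment (795 and 700 of 841), and the line marks equal ratios. Points lie closer to the line in the first experiment.

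The edgeR test of the region by genotype term gave no short d3'UTR with a changed ratio. Of 5795 d3'UTRs tested, 0 (0%) passed an adjusted p of 0.05 in either direction, and 877 of them were short. An unadjusted p under 0.05 was found for 21 of the 877 (2.39%) and for 96 of the 5795 (1.66%). Features of the same gene that differ only in the upstream part were counted separately in both shares. Arhgap17 thus entered the 21 more than once with the same reads (unadjusted p = 0.00534 by edgeR each time). DESeq2 gave 0 calls among the short d3'UTRs and 2 among all. On counts simulated for the same 5795 d3'UTRs, this test found 7% of the 2-fold and 51% of the 4-fold changes put in. Most 2-fold changes of usage were thus missed there. The simulation held no difference of the ratios between the experiments and no library that stood apart, so these shares may not carry over to the real libraries. The median log2 difference (WT over Aire-KO) was 0.13 for the short d3'UTRs and 0.09 for all. With TMM factors over the 8 columns these medians were -0.0019 and -0.04.

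Among the first by p, none of which passed, Cops8 (a COP9 signalosome subunit) had ratios of 0.0744 and 0.0602 in the WT libraries and of 0.0337 and 0.0306 in the Aire-KO libraries. Its log2 difference was 1.07 ± 0.25 (SE) by edgeR (unadjusted p = 0.00819, adjusted p = 0.9999). Fzd5 (a Wnt receptor) had 0.156 and 0.226 in WT and 0.0606 and 0.0499 in Aire-KO on 5 to 31 d3'UTR reads. Prmt6, an arginine methyltransferase gene, had 0.285 and 0.242 in WT and 0.101 and 0.0881 in Aire-KO. In these 3 genes the groups did not overlap, but they were chosen by p in the same test, so this is no further evidence. In the other direction, Cacna1s (a muscle calcium channel) had ratios of 0.000950 and 0 in WT and of 0.00833 and 0.00437 in Aire-KO. Its d3'UTR held 1 and 0 reads in WT, beside 2123 and 1913 upstream reads. In Aire-KO it held 31 and 27, beside 7508 and 12465. The d3'UTR of Arhgap17 held 0 reads in both WT libraries (2708 and 960 upstream reads) and 9 and 7 in Aire-KO (1921 and 2426). In WT of the replicate experiment this 0 allows a ratio of up to 0.0200 over an upstream part of 837 bp. That is above the 0.0184 of Aire-KO there. Prss8, a membrane-anchored serine protease gene, had ratios of 0.140 and 0.155 in WT and of 0.233 and 0.249 in Aire-KO.

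One library stood apart in the ratios of the short d3'UTRs. In 119 of the 841 well covered ones (14.1%), the ratio in Aire-KO of the replicate experiment was under 0.5 times the lowest ratio of the other 3 libraries. The same was true for WT of the replicate experiment in 74 (8.80%), for Aire-KO of the first experiment in 10 (1.19%) and for WT of the first experiment in 5 (0.595%). Ratios over 2 times the highest of the others were found in 15, 27, 28 and 27 in the same order. Over the longer d3'UTRs, the 2 libraries of the replicate experiment were the low one in 2.90% (Aire-KO) and 3.59% (WT). Aire-KO of the replicate experiment had the most reads of all libraries. Dnajb9, an endoplasmic reticulum co-chaperone gene, had ratios of 0.401, 0.382 and 0.311 in the other libraries and 0.0924 there. Hnrnph1, a splicing regulator gene, had 0.271, 0.264 and 0.335 against 0.0746. Without this library the median log2 difference of the usage test was 0.03 for the short d3'UTRs, and without Aire-KO of the first experiment it was 0.25, with 135 of 877 at an unadjusted p under 0.05 and 0 calls. Over all d3'UTRs the same fit had a median of 0.17 and 387 of 5795 (6.68%) at an unadjusted p under 0.05. Each of these fits leaves 1 Aire-KO library, which is assumed to vary like the WT libraries.

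Expression of the transcripts that carry a short d3'UTR was tested with edgeR over 26790 RefSeq IDs. Of 1027 transcripts with a short d3'UTR that were tested, 35 (3.41%) were higher and 4 (0.389%) lower in WT, against 5.58% and 0.258% of all RefSeq IDs tested. The median log2 fold change was -0.09 for them and -0.03 for all. Scaling by library size alone moved the median of all to 0.26 and the counts to 62 and 1. Without 1 library the counts were 53 and 7 (WT of the first experiment), 40 and 3 (WT of the replicate experiment), 78 and 5 (Aire-KO of the first experiment) and 67 and 15 (Aire-KO of the replicate experiment). DESeq2 gave 94 and 16. With the experiment as a block in edgeR the counts were 123 and 102, against 4428 and 2777 of all 26790 RefSeq IDs. Of the calls among transcripts with a short d3'UTR, 54.7% were higher in WT with the block and 89.7% without it. The excess of calls higher in WT thus depended on the fit.

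Among those higher in WT, Gkn2, a gastrokine gene of the stomach, had 519 and 660 counts in WT and 2 and 0 in Aire-KO (first and replicate experiment, adjusted p = 0.0189 by edgeR). The ratio of the summed counts, scaled by effective library size, was 654 (95% exact interval 181 to 5407, counting error only). Ldhc, the testis form of lactate dehydrogenase, had 1.80 and 3.34 CPM in WT and 0.0551 and 0.0392 in Aire-KO (log2 fold change 5.77 ± 0.74 SE, adjusted p = 0.0189). Itih4, a plasma protein gene of the liver, had 7.62 and 7.77 CPM against 0.193 and 0.231 (5.18 ± 0.51, adjusted p = 0.0176). Cckar, the cholecystokinin A receptor, had 3.22 and 3.21 CPM against 0.138 and 0.170. Iapp, the islet hormone amylin, had 43.9 and 74.8 CPM against 5.93 and 3.20. Cilp, a cartilage matrix gene, had 67.9 and 60.2 CPM against 6.39 and 5.84 (3.39 ± 0.37, adjusted p = 0.0176). The libraries of the 2 genotypes did not overlap in these 6 genes, but the genes were chosen by p in the same comparison, so this is no further evidence. Spp1 (osteopontin), Umod (uromodulin of the kidney), Klk6 (a kallikrein), Gcg (glucagon) and Tat (the liver enzyme tyrosine aminotransferase) were also among the 35. Of the list of secreted and tissue-restricted proteins, 15 were tested, and 4 passed as higher and 0 as lower in WT, with a median log2 fold change of 2.31. Over all RefSeq IDs tested, 5.58% were higher and 0.258% lower. The other lists had at most 1 call in either direction. All lists were drawn up with earlier results of these data known, and no enrichment was tested.

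The 4 transcripts called lower in WT by the fit of genotype alone were Aebp1, a gene active in fibroblasts and adipocytes, Cdh8 (a cadherin), Cacna1s and Sod3, the extracellular superoxide dismutase. Aebp1 had 4.17 and 3.95 CPM in WT and 20.4 and 26.9 in Aire-KO (log2 fold change -2.54 ± 0.39 SE, adjusted p = 0.0264 by edgeR). Sod3 had 5.60 and 7.16 CPM against 20.1 and 24.5 (-1.81 ± 0.38, adjusted p = 0.0492). Dcn, the decorin gene of fibroblasts with a short d3'UTR, had a log2 fold change of -1.65 and did not pass (adjusted p = 0.0746 by edgeR). The summed fibroblast markers were 135 and 110 CPM in WT and 316 and 277 in Aire-KO, and their part in these 4 was not tested. Leaving out a library ended the call of Cdh8 (adjusted p = 0.124 without WT of the replicate experiment), of Cacna1s (0.138 without WT of the first experiment) and of Sod3 (0.118 and 0.0821 without WT of the first and of the replicate experiment, and 0.0567 without Aire-KO of the replicate experiment).

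**Figure D4:**
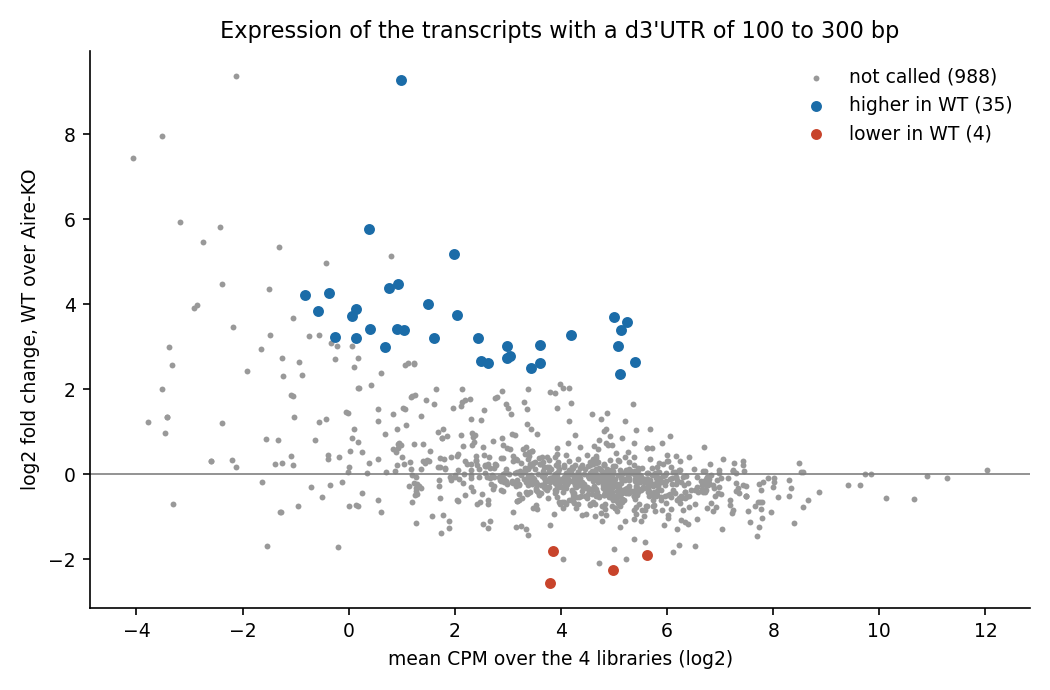
Log2 fold change of expression (WT over Aire-KO) of the 1027 tested transcripts with a d3'UTR of 100 to 300 bp against their mean CPM over the 4 libraries (log2). Coloured points passed an adjusted p of 0.05 by edgeR in the fit of genotype alone, 35 of them higher and 4 lower in WT.

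Transcripts higher in WT by fold change were next set beside transcripts with little change. Within an experiment, transcripts with a fold change (WT over Aire-KO) of at least 3 were taken as Aire-sensitive, and the same number with a fold change closest to 1 as Aire-neutral. No minimum count and no test was required, whereas the study also applied a Z-score criterion. Transcripts with few reads in WT and none in Aire-KO were thus in the sensitive class, which need not hold only genes that Aire induces. Of those with a short d3'UTR, 108 (10.5%) met this limit in the first and 123 (11.9%) in the second of the experiments. Both met it in 87 (80.6% of the 108 and 70.7% of the 123). The shares were 21.4% and 21.9% over all RefSeq IDs, which include many transcripts without a d3'UTR. Of the longer d3'UTRs with a ratio in WT, 368 of 5045 were in this class in the first experiment and 421 of 5001 in the replicate experiment. The short d3'UTRs were thus not low in this class beside the longer ones. In WT the median ratio was 0.276 in the sensitive and 0.211 in the neutral class of the first experiment, and 0.112 and 0.107 for the replicate experiment. With classes taken from the other experiment the WT medians were 0.275 and 0.160 in the first and 0.0945 and 0.200 for the replicate experiment.

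In the Aire-KO libraries the sensitive class had medians of 0.0555 and 0 and the neutral class of 0.215 and 0.0667 (first and replicate experiment). A ratio of 0 was found in 45.7% and 51.5% of the sensitive class there, on a median of 19 and 91 upstream reads, against 1289 and 1393 in the neutral class. The classes were chosen on the same Aire-KO counts. With at least 20 upstream reads the sensitive and neutral medians were 0.199 and 0.205 for the first experiment and 0.0863 and 0.0468 for the replicate experiment. In the longer d3'UTRs the WT medians were 0.458 and 0.501 in the first and 0.357 and 0.503 for the replicate experiment (sensitive and neutral).

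**Figure D5:**
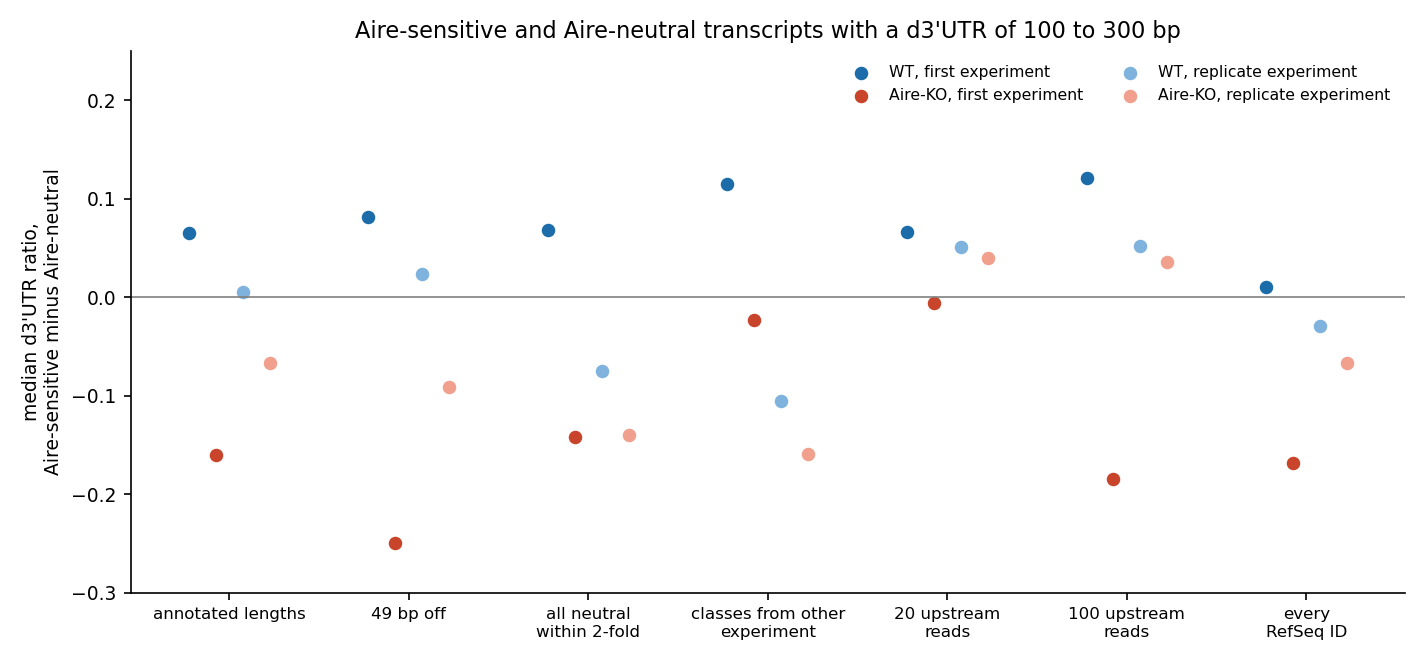
Median d3'UTR ratio of Aire-sensitive minus Aire-neutral short d3'UTRs (vertical, no unit) in each library under 7 settings of lengths, classes and minimum reads (horizontal). WT of the first experiment lies above 0 and Aire-KO of the first experiment below 0 in all 7 settings, while both libraries of the replicate experiment lie on both sides of 0.

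Single Aire-sensitive genes differed widely. Of the 42 in this class in both experiments with at least 100 upstream reads in each WT library, 19 had a ratio under 0.25 in both and 0 had one over 0.75 in both. Klk6, with AATAAA before the proximal pA and no listed hexamer at the distal end, had 0.0280 and 0.0166 in WT on 979 and 1503 upstream reads. Wfdc12, a whey acidic protein family gene, had 0.0175 and 0, Elovl2 (a fatty acid elongase) 0.0130 and 0, and Rab3il1 0 in both. At the high end, Cilp had 0.705 and 0.347 and Umod 0.399 and 0.334, both without a listed hexamer before the proximal pA and with AATAAA at the distal end. Bco1 (a carotenoid-cleaving enzyme) had 0.534 and 0.676 and Agt (angiotensinogen) 0.442 and 0.559. Among located Aire-sensitive short d3'UTRs, the WT median was 0.0415 with AATAAA or ATTAAA before the proximal pA and 0.314 without for the first experiment (21 and 16 d3'UTRs), and 0.0459 and 0.158 for the replicate experiment (28 and 20). Those within 2-fold had medians of 0.122 and 0.353 for the first experiment (203 and 104), and 0.0910 and 0.337 for the replicate experiment (203 and 110).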

How the data were processed

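RNA-seq counts of 4 mTEChi libraries were used, 2 labelled WT and 2 labelled Aire-KO. The authors turned paired reads into single 50 bp reads, removed those that CASAVA marked as low quality, aligned the rest to mm9 (Bowtie 1.0.0) and used bedtools to count reads lying wholly inside each feature. The authors deposited these raw counts per RefSeq ID and per feature. Proximal pAs came from PolyA_DB and the kit was not directional, per the study's methods and the labels. Total counts ran from 111077552 to 242862323 per library, so depth limited mainly d3'UTRs of weakly expressed genes.

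RefSeq IDs with the same lengths and counts were joined. Ratios were taken with annotated lengths and with 49 bp off both. Expression was tested with edgeR 4.0.16 (TMM, filterByExpr, quasi-likelihood, genotype only) on the representative RefSeq ID, with Benjamini-Hochberg adjusted p under 0.05. Usage was tested with edgeR's region by genotype term, with a factor per library and with at least 10 upstream reads in each library and 10 d3'UTR reads in all. DESeq2 1.42.0 was an alternative. Other alternatives changed lengths, read minimums, features, scaling and classes, or left out each library. Medians of libraries were compared by an exact permutation test. As nothing says that the libraries of a genotype came from separate sorts beyond the 2 experiments, p-values measure the spread between these libraries.

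D3'UTRs were placed on NCBIM37 (mm9) where GENCODE M1 has a last exon of exactly the same length for the gene symbol. In 20 of 20 cases where part of the study's annotation gave the place, both were the same. Intervals are exact binomial (95%), and a count of 0 is given as 3 counts. Tested on simulated counts, the expression fit found 27% of the 4-fold and 90% of the 16-fold changes put into 26790 RefSeq IDs and made 4 false calls, and the usage fit made 11 over 5795 d3'UTRs. Other tools were R 4.3.3, Python 3.11.15, scipy 1.17.1 and pandas 2.3.3.

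The d3'UTRs, gene lists, tests and the rule for named genes were chosen with earlier results of these data known, and the hexamer analysis was added after the data were seen. The rule named, among d3'UTRs with at least 100 upstream reads in every library, the 6 lowest, the 6 highest and the 6 with most reads. It also named the first by p in each test, the lowest and highest Aire-sensitive ones, up to 2 of each gene family list, those next to the length limits and genes named in the paper. One gene that the rule named is not reported here. Genes over opposite-strand exons, Gcg, Tat and the genes with printed sequences were chosen after their values were seen. The gene families were defined by symbol.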

Additional observations from a re-analysis of the deposited data

How the results depend on the processing

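With 49 bp off both lengths, the mean median ratio rose to 0.253 in WT, and reads summed before division gave 0.477 in WT and 0.408 in Aire-KO. Leaving out a library gave medians of 0.178 to 0.217 in WT and of 0.121 to 0.192 in Aire-KO, and genotype differences of 0.00526 to 0.0764. The difference of the medians between AATAAA and no listed hexamer was -0.364 in WT and -0.367 in Aire-KO with 49 bp off, and -0.300 in Aire-KO without d3'UTRs over opposite-strand exons, alternatives chosen after seeing the data.

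Expression calls among transcripts with a short d3'UTR (35 higher, 4 lower in WT) became 62 and 1 with library sizes alone, 94 and 16 with DESeq2, 40 and 8 with median-of-ratios size factors, 50 and 9 without filterByExpr, and 40 to 78 and 3 to 15 without 1 library. With the replicate block they became 123 and 102. Within an experiment, the libraries' deviations from their genotype means correlated at 0.721 over 23849 RefSeq IDs and at 0.113 over 695 short d3'UTR ratios. The study describes the second pair as a replicate experiment, but the labels name no batch that the libraries of an experiment share. The main fits did not pair the libraries, and the block fit is given beside them. The block gave 0 usage calls and a mean genotype difference of the median ratio of 0.0408. Usage calls stayed at 0 under all 10 alternatives.

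The Aire-sensitive minus Aire-neutral median ratio changed most. In WT of the first experiment it was 0.0647, and 0.115 with classes from the other experiment, 0.121 with 100 upstream reads and 0.0107 with every RefSeq ID. In WT of the replicate experiment it was 0.00520, and -0.0746 against all within 2-fold, -0.105 with classes from the other experiment, 0.0511 and 0.0516 with 20 and 100 upstream reads and -0.0291 with every RefSeq ID. In Aire-KO of the first experiment it was -0.160, and -0.249 with 49 bp off, -0.0234 with the other classes and -0.00633 with 20 upstream reads. In Aire-KO of the replicate experiment it was -0.0667, and -0.140 against all within 2-fold, -0.159 with the other classes, and 0.0395 and 0.0359 with 20 and 100 upstream reads. The cause was not tested. In Aire-KO the sensitive class had a median of 19 and 91 upstream reads (first and replicate experiment), which limits the precision of its ratios.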

Other observations

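Of the 1037 short d3'UTRs, 72 belonged to 33 genes with more than 1 of them. Arhgap17, a GTPase activating protein gene, had 3 with upstream parts of 837 to 886 bp and the same d3'UTR of 131 bp and counts. Cbarp, a gene for a regulator of calcium channels, had 2 over the same d3'UTR of 118 bp, with ratios of 1.70, 1.76, 2.39 and 2.73 over an upstream part of 1700 bp (WT and Aire-KO of the first experiment, then of the replicate experiment) and of 2.42, 2.47, 3.22 and 3.73 over one of 3176 bp. The length of the annotated upstream part thus moved this ratio while the d3'UTR reads were the same.

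Cfhr2, a complement factor H-related gene of the liver, had a d3'UTR of 167 bp with AATAAA at both places. It held 7 reads in WT of the first experiment and 0 in the other 3 libraries, beside 178, 89, 119 and 11 upstream reads. Its expression was 1.69 and 2.92 CPM in WT and 2.48 and 0.513 CPM in Aire-KO (first and replicate experiment), and the genotypes overlapped (adjusted p = 0.775 by edgeR).

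The bases of the located short d3'UTRs had a median GC content of 37.9%, against 42.5% in the 2073 longer ones. Of the cleavage and polyadenylation genes, 2 had a short d3'UTR. Cpsf7 had ratios of 0.0344, 0.0301, 0 and 0.0413, and Rprd1b, which encodes a protein bound to the tail of RNA polymerase II, had 0.223, 0.127, 0.162 and 0.0759. Neither passed the expression test (log2 fold changes of -0.43 and -0.41, WT over Aire-KO).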
